A study of Mus musculus with 91 samples.

Results

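Transcripts of 106 genes of vesicle traffic and fusion were followed in 91 single bone marrow progenitors of C57BL/6 mice. The genes were all rows of the expression table, 23956 in all, whose symbol begins with Rab, Vamp, Stx or Stxbp and a number, or is Snap and a number, together with Unc13d. They are called members below. Besides Rab GTPases and SNARE proteins, this name rule also took in Rab effectors and regulators, Stxbp proteins, 4 opposite-strand transcripts and Snap91, a clathrin assembly protein that is no SNARE. Vamp7 was not analysed here. All cells carried the same genotype, written Gfi1-R412X/- Irf8+/-, that is Gfi1-R412X opposite an allele written as minus, with Irf8 heterozygous, and no wild-type cells were analysed here. The sort took CD117-positive marrow cells without lineage markers or Sca-1, with CD34 and with high CD16/32. There were 2 populations, 46 cells named GMP (granulocyte-monocyte progenitor) and 45 cells named CD11b+ GMP-P. The labels name no animal and no age, so each population counts as 1 sample and no test between them was possible. Each cell came through a Fluidigm C1 chip, and any batch between the populations cannot be told apart from the population.

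Rab proteins are small GTPases that mark a membrane as belonging to a given compartment and recruit the tethers that bring vesicles there. SNARE proteins of the vesicle (the Vamp family) and of the target membrane (syntaxins and the Snap family) then zip together and fuse the membranes, with Stxbp and Unc13 proteins as helpers. In neutrophils and cytotoxic lymphocytes, Rab27a, Munc13-4 (the product of Unc13d), Stx11 and Munc18-2 (the product of Stxbp2) serve the docking and fusion of secretory granules, and inherited loss of any of them causes a hyperinflammatory immune disease.

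GMP cells had 5294 ± 801 genes above 0 (mean ± SD over cells, n = 46) and CD11b+ GMP-P cells 4112 ± 953 (n = 45). The values are TPM, the share of a transcript in its cell's total, which keep no read depth, so the depth of a cell is unknown and a 0 can be a missed transcript. Levels below are log2(TPM + 1). A difference subtracts the GMP mean from the CD11b+ GMP-P mean, so that a negative value is lower in CD11b+ GMP-P, and a call needs a size of at least 1. Ranges in parentheses after a share of cells are exact 95% intervals (Clopper-Pearson) and cover counting error only. Of the gate genes, Itgam (CD11b) went from a mean of 0.54 ± 1.37 to 3.68 ± 2.87 in CD11b+ GMP-P, whereas Kit (CD117) averaged 3.65 ± 2.84 and 0.90 ± 1.55, and Cd34 7.22 ± 2.80 and 2.55 ± 3.28. The CD16/32 genes were lower too, with Fcgr3 at 9.18 ± 1.70 and 6.89 ± 3.30 and Fcgr2b at 5.24 ± 3.38 and 3.46 ± 3.59. Ly6a, which encodes Sca-1, was above 0 in 43 GMP cells and 44 CD11b+ GMP-P cells although the sort was Sca-1-negative. Reads of the similar Ly6 genes could have been shared out between them, which was not tested.

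Marker lists of other cell types and of maturing neutrophils moved between the populations. Of 13 neutrophil genes 8 were higher and 5 lower in CD11b+ GMP-P, and their summed TPM, as log2(sum + 1), ran from 6.39 to 16.84 in GMP (median 15.75) and from 10.24 to 19.09 in CD11b+ GMP-P (median 18.30). Of 7 monocyte genes 5 were lower, with sums from 0 to 12.54 (median 9.21) and from 0 to 11.42 (median 5.33), and of 6 basophil and mast cell genes 3 were lower, with sums from 0.24 to 14.57 (median 8.85) and from 0 to 10.61 (median 4.17). Of 7 lymphoid genes 2 were lower, Nkg7 and Cd79b, while Cd79a, Cd3e and Il7r were at 0 in every cell, and the sums ran from 2.15 to 12.87 and from 0 to 12.61. Of 6 macrophage genes 2 were higher, C1qa, C1qb and C1qc were at 0 throughout, and the sums ran from 0 to 10.71 and from 0 to 9.28. Of 7 erythroid and megakaryocyte genes none was measured, Hbb-b1, Klf1, Epor and Pf4 were at 0 throughout, and the sums reached 9.46 and 9.14. Because TPM are shares of a fixed total, the neutrophil genes and the members draw on the same total; the part of these lists in the members' differences was not tested beyond the scalings given below.

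Most members were found, and none was higher in CD11b+ GMP-P. Of the 106, 73 are called measured because 10% or more of GMP or of CD11b+ GMP-P cells had a value above 0, while 19 were at 0 in every cell. Among the 73, 13 were lower in CD11b+ GMP-P (17.8%), 0 were higher and 60 differed by less than 1. Of all 10030 genes measured by the same filter, 29.9% were lower and 2.45% higher, so the share of lower members was smaller than that of genes at large. Over all rows, measured or not, 12.3% of members and 12.5% of genes were lower, and 1.03% of genes were higher. The members' median difference was -0.38, with a range from -1.80 to 0.95, against -0.50 for all measured genes. Among the 39 members found in 50% or more of GMP or of CD11b+ GMP-P cells, a filter added after the data were seen, 12 were lower (30.8%, against 51.8% of 5133 genes) and 0 higher (against 3.70%), with medians of -0.63 and -1.05. Scaling moved these counts. With cells scaled by median of ratios 3 members were lower and 3 higher (against 18.7% and 4.47% of genes), and without the 50 highest genes of each cell 11 were lower and 3 higher (against 27.5% and 3.98%). The medians of all measured genes were then -0.26 and -0.44, against -0.09 and -0.25 for the members. Genes that passed the filter only through the population where they are more frequent include Rab20, Rab27b and Rab34, so these counts describe the measured members and not all of them.

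**Figure D1:**
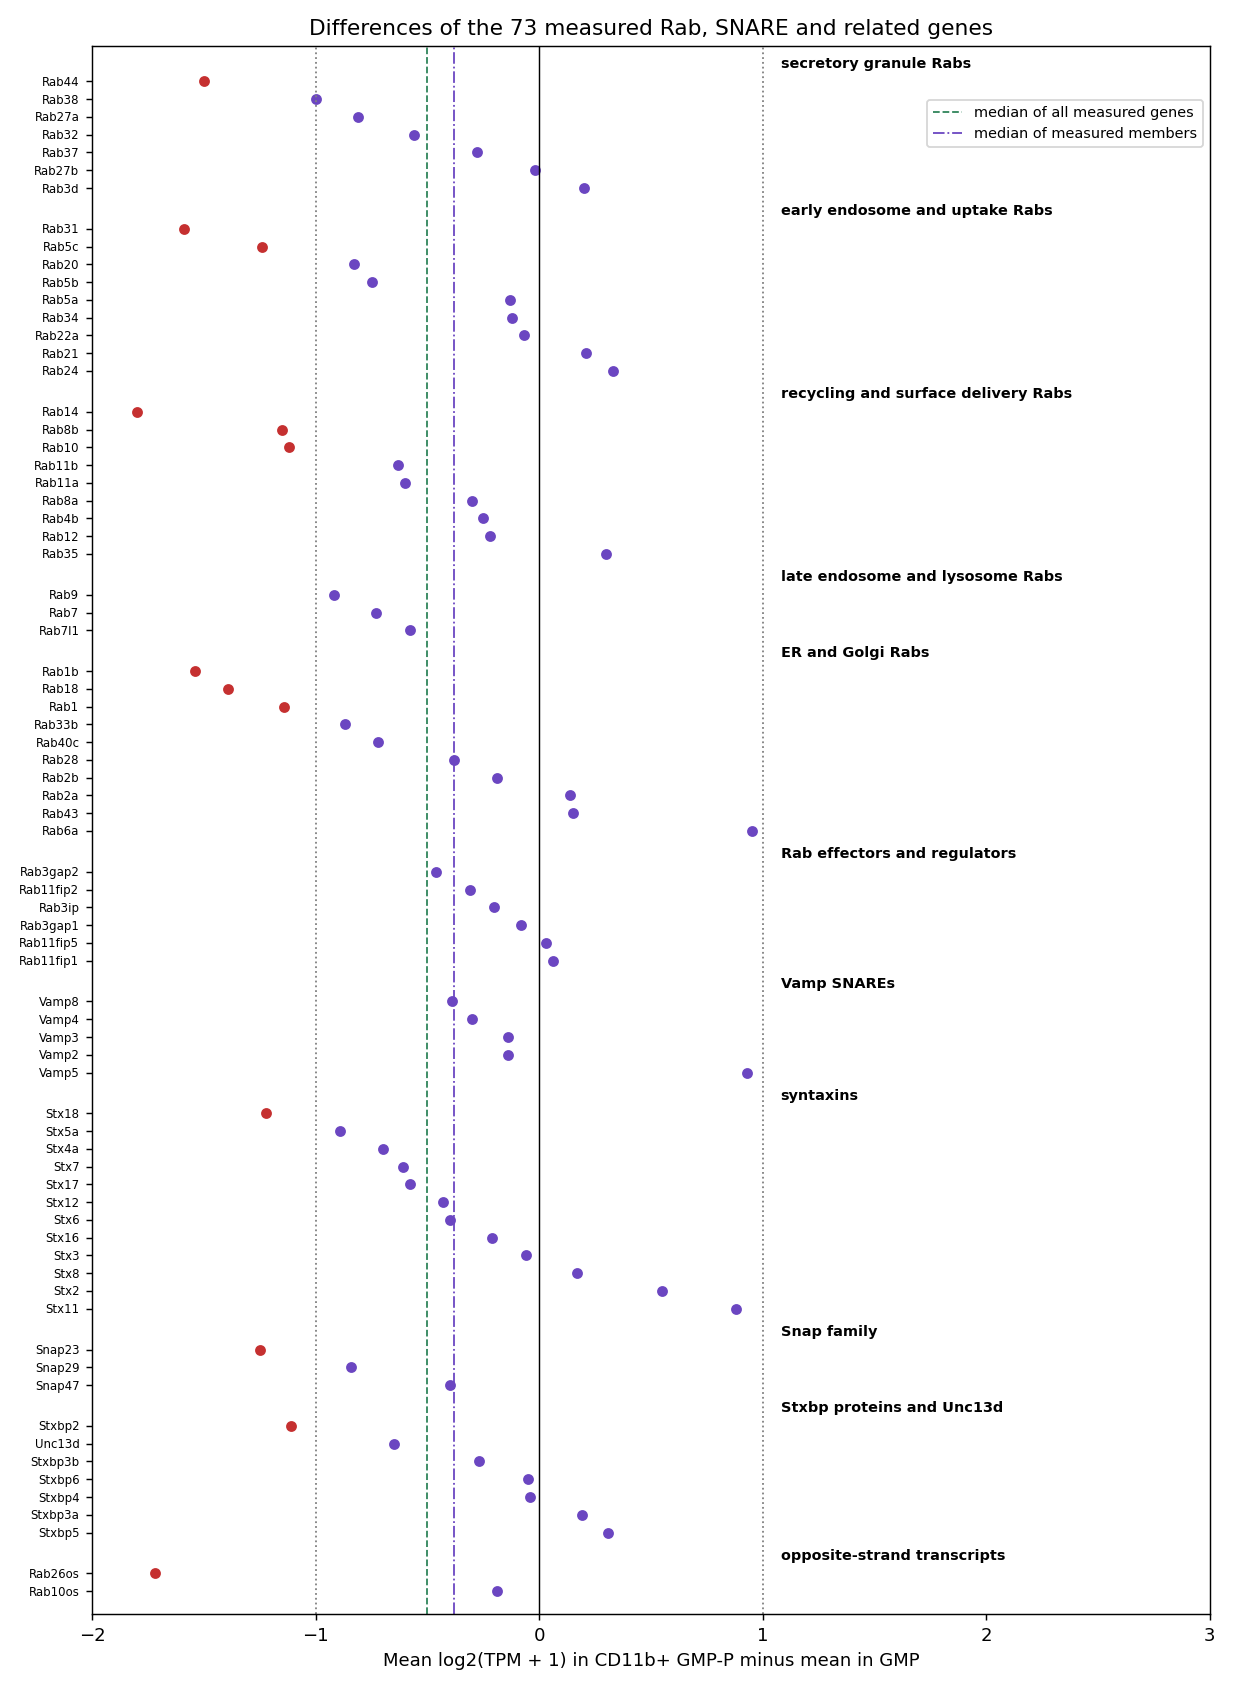
The x axis gives, for each of the 73 measured members (1 point per gene), the mean log2(TPM + 1) of CD11b+ GMP-P less that of GMP, grouped by role, with dotted lines at -1 and 1. Red points mark the 13 lower members; the dashed line is the median of all measured genes at -0.50 and the dash-dotted line that of the members at -0.38.

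The number of members found in a cell followed the number of genes found in it. GMP cells held between 21 and 49 members above 0, with a median of 39, and CD11b+ GMP-P cells between 15 and 47, with a median of 32. Within a population the number of members and the number of genes correlated at r = 0.87 over 46 GMP cells and r = 0.79 over 45 CD11b+ GMP-P cells, where both numbers come from the same library and share its depth. Per 1000 genes found there were 7.27 ± 0.631 members in GMP and 7.99 ± 1.20 in CD11b+ GMP-P. The ranges overlapped, from 6.20 to 8.71 and from 6.04 to 10.9. The members together made up 3430 ± 820 TPM of a GMP cell and 3057 ± 1130 TPM of a CD11b+ GMP-P cell.

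**Figure D2:**
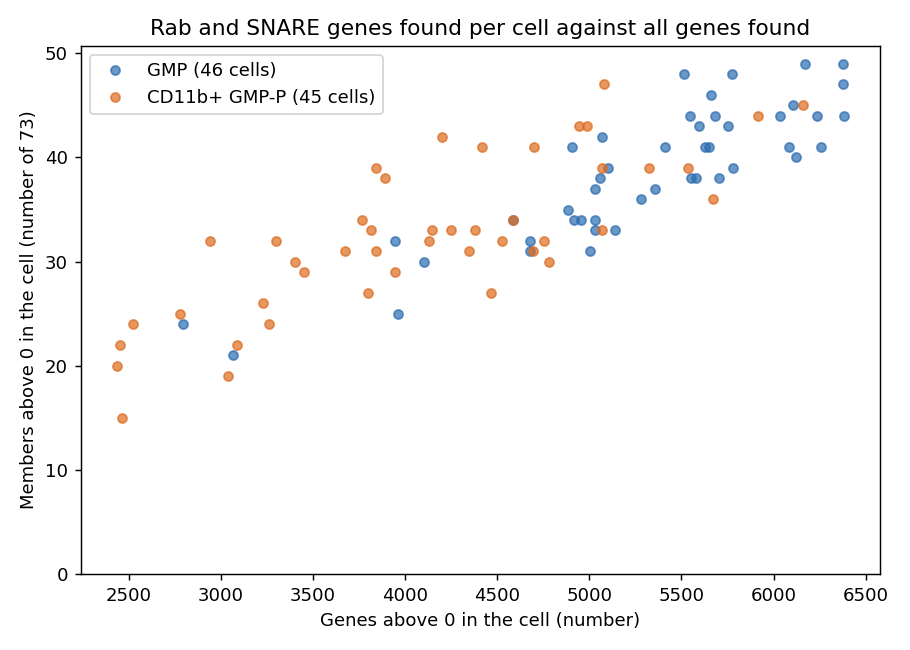
Number of the 106 members above 0 (y axis) against the number of all genes above 0 (x axis) in each cell, 1 point per cell, for 46 GMP and 45 CD11b+ GMP-P cells. The y axis label gives the 73 measured members, but the points count all 106. Cells with fewer genes held fewer members, down to 15 members in a CD11b+ GMP-P cell.

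Among the vesicle SNAREs, Vamp8 was the most abundant member of all. Vamp8 works on endosomes and secretory granules. Its level ran from 0 to 11.26 in GMP with a median of 9.16, and from 0 to 11.18 in CD11b+ GMP-P with a median of 9.23. It was above 0 in 45 of 46 and 44 of 45 cells, the groups overlapped over their whole range, and the means of 8.66 ± 2.08 and 8.27 ± 2.35 differed by -0.39. That sign did not hold, since the difference was 0.56 with median of ratios scaling and 0.17 without the 50 highest genes. Vamp5, a Vamp protein first described in muscle, leaned the other way. Its median was 0.21 in GMP (range 0 to 8.10) and 2.57 in CD11b+ GMP-P (range 0 to 8.48). It was found in 23 cells of GMP (50%, 34.9 to 65.1) against 28 of CD11b+ GMP-P (62.2%, 46.5 to 76.2). Its difference of 0.93 missed the size of a call, although it was positive in 9 of 9 alternatives and reached 1.43 under median of ratios scaling. Vamp3 (cellubrevin), the SNARE of recycling endosomes, averaged 3.33 ± 3.28 and 3.20 ± 3.04. Vamp4 and Vamp2 were sparse, with 18 and 7 GMP cells above 0 and 12 and 7 CD11b+ GMP-P cells. Of the 6 Vamp rows, 5 were measured, 0 were called in either direction, and the median difference was -0.14. With 29.9% of all measured genes lower and 2.45% higher, 0 calls among 5 genes say little.

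Vamp8 and Vamp5 lie next to each other on mouse chromosome 6, with their annotated starts 10.2 kb apart on the same strand. The 250 bases before the start of both genes are shown because these neighbours had unlike levels. Those of Stx11, the syntaxin with the most positive difference, and Rab14, the coding member with the most negative difference, are shown too. The sequences are RefSeq promoters on build GRCm38.p6, a later build than the mm9 of the expression table, and each is printed on the gene's minus strand. They lie at chr6:72390668-72390917 for Vamp8, chr6:72380469-72380718 for Vamp5, chr10:12964260-12964509 for Stx11 and chr2:35201121-35201370 for Rab14. Capitals mark matches on either strand to the GFI1 core AATC, the C/EBP motif TTGCNNAA, the PU.1 motif GAGGAA and the GC box GGGCGG.
Vamp8: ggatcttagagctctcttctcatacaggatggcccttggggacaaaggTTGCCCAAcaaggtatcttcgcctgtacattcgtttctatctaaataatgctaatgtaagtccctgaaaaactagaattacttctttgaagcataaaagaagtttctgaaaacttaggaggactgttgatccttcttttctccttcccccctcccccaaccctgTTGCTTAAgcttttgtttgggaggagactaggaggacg
Vamp5: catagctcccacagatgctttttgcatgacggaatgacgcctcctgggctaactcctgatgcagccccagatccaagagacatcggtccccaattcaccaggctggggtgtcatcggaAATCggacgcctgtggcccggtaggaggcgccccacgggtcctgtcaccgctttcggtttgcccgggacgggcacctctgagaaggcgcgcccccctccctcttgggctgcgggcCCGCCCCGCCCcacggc
Stx11: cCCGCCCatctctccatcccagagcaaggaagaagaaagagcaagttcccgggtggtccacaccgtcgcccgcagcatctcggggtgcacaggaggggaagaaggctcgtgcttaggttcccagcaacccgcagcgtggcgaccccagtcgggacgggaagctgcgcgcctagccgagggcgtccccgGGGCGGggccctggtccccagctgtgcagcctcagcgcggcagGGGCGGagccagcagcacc
Rab14: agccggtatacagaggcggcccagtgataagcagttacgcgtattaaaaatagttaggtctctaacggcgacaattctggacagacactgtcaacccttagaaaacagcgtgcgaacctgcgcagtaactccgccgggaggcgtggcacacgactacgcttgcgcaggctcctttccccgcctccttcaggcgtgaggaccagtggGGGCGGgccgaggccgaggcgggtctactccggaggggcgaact
The Vamp8 window held 2 C/EBP matches, no GC box and 3 CpG dinucleotides, while the Vamp5 window held 1 GFI1 core, 2 GC boxes and 19 CpG. Stx11 had 3 GC boxes and 21 CpG, and Rab14 had 1 GC box and 23 CpG. Of the members, 83 matched a promoter in the table. A GC box was found in 67.5% of these and in 32.9% of the 27025 genes listed, a C/EBP match in 8.43% and 9.55%, the GFI1 core in 59% and 69.8%, and the PU.1 motif in 13.3% and 23.1%. The median number of CpG was 16 for members and 6 for all genes. The genes listed were not matched to the members in CpG or expression, so the GC box share was not shown to be particular to members. A match is a run of letters and not a known binding site, and only the first start listed for a gene was used.

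The target membrane SNAREs and their helpers were unevenly found. Snap23, the widely used partner of plasma membrane syntaxins, had a median of 3.69 in GMP (range 0 to 8.51) and 0 in CD11b+ GMP-P (range 0 to 9.90). It was held by 32 cells of GMP (69.6%, 54.2 to 82.3) against 19 of CD11b+ GMP-P (42.2%, 27.7 to 57.8), and was lower by this measure, at -1.25. The cells that held it had much the same level, with medians of 5.69 and 6.01, and the log2 ratio of mean TPM was 0.20, the opposite sign. Snap29, an endosomal family member, differed by -0.84, with 25 and 13 cells above 0, and Snap47 by -0.40. Snap25 and Snap91 were not measured.

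Stx11, the syntaxin of granule secretion in immune cells, was the syntaxin with the most positive difference, 0.88. In GMP it was above 0 in 4 of 46 cells (8.7%, 2.4 to 20.8), all of them at 10 TPM or more. In CD11b+ GMP-P it was above 0 in 17 of 45 cells (37.8%, 23.8 to 53.5), of which 11 reached 1 TPM (24.4%, 12.9 to 39.5) and 8 reached 10 TPM (17.8%, 8.0 to 32.1). The gap in cell counts thus narrowed as the floor rose, from 4 against 17 above 0 to 4 against 11 at 1 TPM and 4 against 8 at 10 TPM. The 2 intervals did not overlap above 0 but did at 1 and at 10 TPM. They are no test between the populations. Its highest level was 5.79 against 9.12 in CD11b+ GMP-P, and the median was 0 in both. The difference was positive in 9 of 9 alternatives, from 0.41 to 2.88, the last as a log2 ratio of mean TPM (2.29 and 23.2 TPM), where a few cells with high values count most. Stx2, a plasma membrane syntaxin, was above 0 in 8 and 16 cells and differed by 0.55. Stx3, a further plasma membrane syntaxin of granule cells, was even, with 13 and 14 cells, while Stx4a differed by -0.70, with 20 and 11 cells. Stx18, an endoplasmic reticulum syntaxin, was the only lower one of 12 measured, at -1.22, with 28 and 20 cells above 0, and the Golgi syntaxin Stx5a differed by -0.89. The syntaxins' median was -0.42, and 0 were higher. Over all measured genes 29.9% were lower and 2.45% higher, with a median of -0.50.

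Stxbp2 was found in every cell. Its level ran from 3.67 to 8.69 in GMP with a median of 6.13, and from 0.56 to 9.30 in CD11b+ GMP-P with a median of 4.69. The lowest values all lay in CD11b+ GMP-P, and 46 of 46 GMP cells but 35 of 45 CD11b+ GMP-P cells reached 10 TPM. The means of 6.20 ± 1.45 and 5.09 ± 2.21 made it lower, at -1.11, which is close to the median of -1.05 of the commonly found genes. With median of ratios scaling the difference was -0.17, and with the log2 ratio of mean TPM -0.32. Unc13d was sparse, held by 20 cells of GMP (43.5%, 28.9 to 58.9) against 14 of CD11b+ GMP-P (31.1%, 18.2 to 46.6), with highest levels of 7.13 and 5.99, and differed by -0.65. Stxbp3a averaged 1.27 ± 2.51 and 1.46 ± 2.53, and Stxbp5 (tomosyn, which binds syntaxins and holds back fusion) 1.05 ± 1.6 and 1.36 ± 2.04. Stxbp3b differed by -0.27, and as a close copy of Stxbp3a its value is less certain.

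The Rabs of secretory granules showed 1 lower member among 7 measured, where 29.9% of all measured genes were lower. Rab27a, which docks granules at the plasma membrane, had a median of 5.71 in GMP (range 0 to 8.01) and 3.27 in CD11b+ GMP-P (range 0 to 9.66). Both populations held it widely, in 41 of 46 and 38 of 45 cells, the groups overlapped, and the means of 4.46 ± 2.68 and 3.65 ± 2.93 differed by -0.81. Its mean TPM was nearly equal, at 63.6 and 63.8. Rab27b, its close relative, did not reach 1 TPM in any cell. Rab44, an atypical large Rab of blood cells, was lower, at -1.50, with medians of 6.64 (range 0 to 8.43) and 5.23 (range 0 to 9.25). In 9 alternatives its difference ran from -1.89 to -0.23, the smallest among the 26 GMP and 21 CD11b+ GMP-P cells with overlapping numbers of genes, called the shared range below. Rab3d, a Rab of exocrine and mast cell granules, was level, at 2.42 ± 2.67 and 2.62 ± 2.70, with 32 cells above 0 in each population. Rab32 and Rab38, a pair that serves lysosome-related organelles, differed in how widely they were found. Rab32 was above 0 in 38 and 35 cells, and Rab38 in 16 (34.8%, 21.4 to 50.2) and 6 (13.3%, 5.1 to 26.8), with a difference of -1.0 after rounding, just short of a call. Rab37 was rare, with 4 and 5 cells, and Rab3a was not measured.

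Cells often held several docking and fusion genes at the same time. At 1 TPM or more, Rab27a, Stxbp2 and Vamp8 shared 38 of 46 cells in GMP (82.6%, 68.6 to 92.2) against 32 of 45 in CD11b+ GMP-P (71.1%, 55.7 to 83.6). With Unc13d added, 14 cells of GMP (30.4%, 17.7 to 45.8) against 8 of CD11b+ GMP-P (17.8%, 8.0 to 32.1) held all 4. The intervals overlapped in both cases. Stxbp2 reached 1 TPM in 46 and 44 cells and Vamp8 in 45 and 43. The count for these 2 genes with Rab27a is therefore nearly that of Rab27a alone, 38 and 33 cells. Whether the genes occur together beyond their single shares was not tested. A GMP cell held 7.07 ± 1.54 of the 16 docking and fusion genes above 0 and a CD11b+ GMP-P cell 6.62 ± 1.53.

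**Figure D3:**
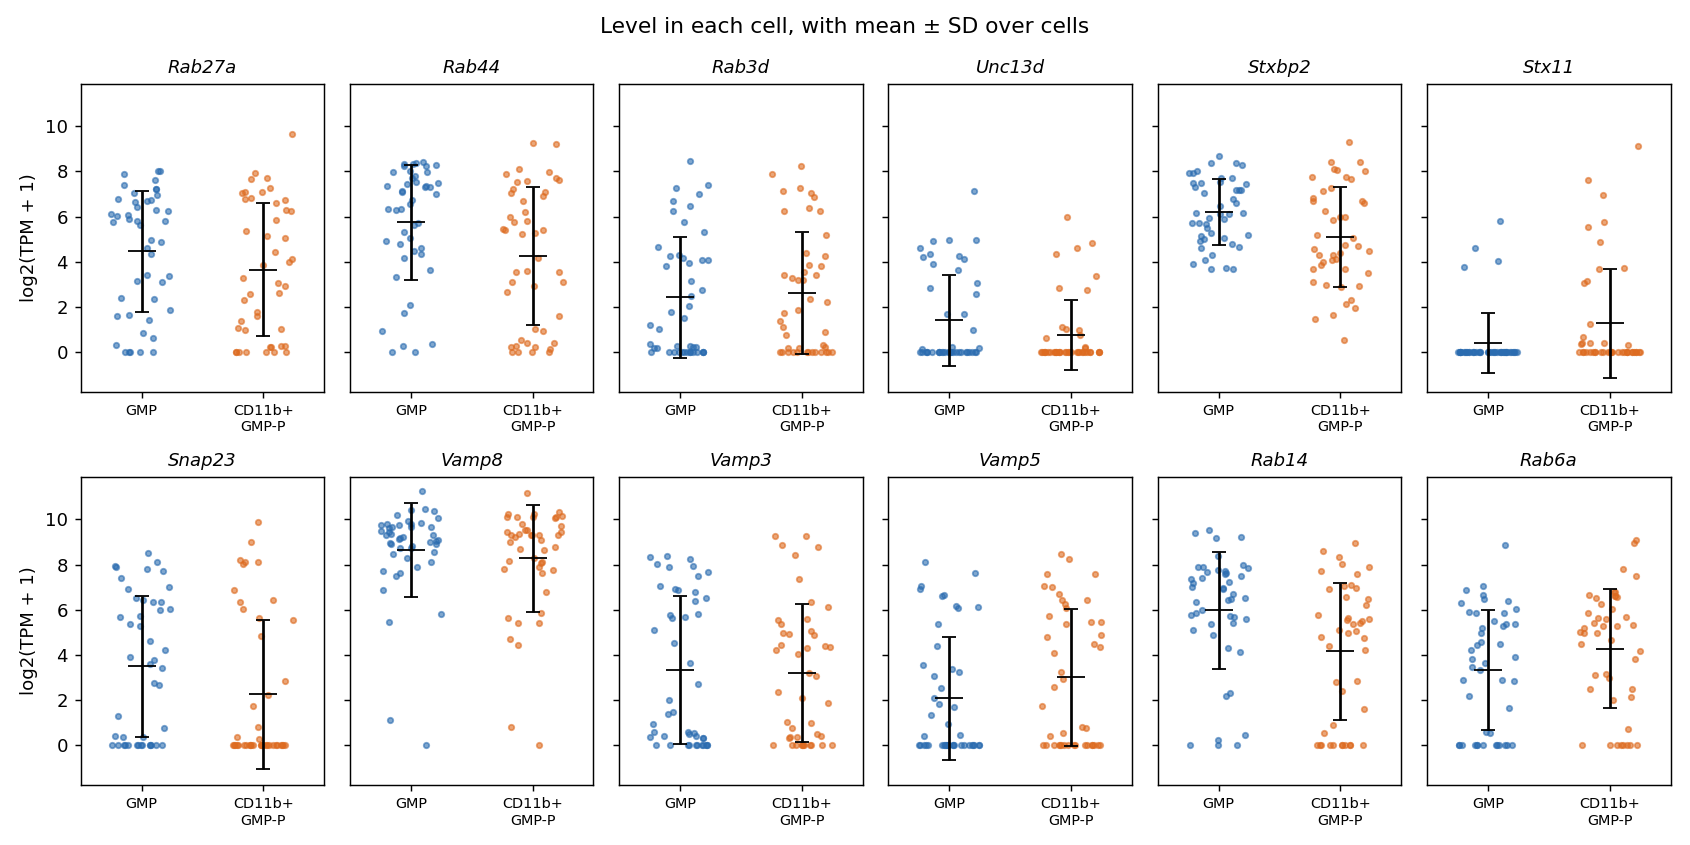
Each panel shows 1 of 12 members, with the y axis in log2(TPM + 1) and 1 point per cell (blue, 46 GMP cells; orange, 45 CD11b+ GMP-P cells). Black marks give the mean and its SD bar, and sideways position carries no meaning. Vamp8 averaged 8.66 and 8.27, and Stx11 was above 0 in 4 and 17 cells.

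Of the Rabs of recycling and surface delivery, 3 of 9 measured were lower, close to the 29.9% of all measured genes. Rab14, which works between the trans-Golgi network and endosomes, was lower by the most among coding members, at -1.80. Its median was 6.61 in GMP (range 0 to 9.54) and 5.05 in CD11b+ GMP-P (range 0 to 8.96), and it was above 0 in 43 and 34 cells. The groups overlapped, and the difference was -0.41 within the shared range, the only one of 9 alternatives that fell short of a call. Rab8b differed by -1.15 and Rab10 by -1.12, both Rabs of transport to the surface, while Rab8a averaged 4.90 ± 2.79 and 4.60 ± 3.52. The mean TPM of Rab8a went the other way, from 91.3 to 182.7, a log2 ratio of 0.99, and its sign held in 4 of 9 alternatives. The recycling endosome Rab11b was above 0 in 45 and 38 cells and differed by -0.63. Rab35 leaned up, at 0.30, with 9 and 14 cells.

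The early endosome Rabs included 2 lower members of 9 measured, Rab31 at -1.59 and Rab5c at -1.24, again against 29.9% of genes. Rab31, a trans-Golgi and endosome Rab, was strongly expressed in most GMP cells, with a median of 7.40 (range 0 to 9.95) against 4.75 in CD11b+ GMP-P (range 0 to 10.56). Its sign turned to 0.53 in the shared range. Rab5, the Rab of early endosome fusion, has 3 paralogs. Rab5c was above 0 in 34 and 22 cells, Rab5b in 24 and 24 with a difference of -0.75, and Rab5a in 26 and 26 with -0.13. The order of Rab5c and Rab5b was not stable, since among Elane-high cells both were lower (-1.25 and -1.17) and in the shared range Rab5b (-1.62) lay below Rab5c (-0.91). Rab20 was above 0 in 6 GMP cells and in 0 of 45 CD11b+ GMP-P cells. By a floor of 3 counts, that allows a share of up to 6.67% of cells with a value above 0, which is no limit on cells that express it. Rab24 and Rab21 differed by 0.33 and 0.21. The 3 measured late endosome and lysosome Rabs were not called, where 29.9% of all measured genes were lower and 2.45% higher. Rab7, the Rab of fusion with lysosomes, averaged 5.95 ± 2.70 and 5.22 ± 3.38, Rab9 differed by -0.92 and Rab7l1 by -0.58.

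Of the Rabs of the endoplasmic reticulum and Golgi apparatus, 3 of 10 measured were lower, Rab1b (-1.54), Rab18 (-1.39) and Rab1 (-1.14), and 0 higher, against 29.9% and 2.45% of all measured genes. Rab1 and Rab1b carry vesicles from the endoplasmic reticulum to the Golgi, and Rab1b was above 0 in 45 GMP cells and 32 CD11b+ GMP-P cells, with similar medians of 5.84 and 6.27 in the cells that held it. Rab6a, a Golgi Rab of retrograde transport, had the most positive difference of all members, 0.95. Its median was 3.74 in GMP (range 0 to 8.87) and 5.03 in CD11b+ GMP-P (range 0 to 9.09), with 33 and 37 cells above 0. It stayed below a call here but reached 1.63 with median of ratios scaling and was positive in 9 of 9 alternatives. Rab33b, a Golgi and autophagy Rab, was among the steadiest members. It was found in every cell, with means of 6.12 ± 1.23 and 5.24 ± 1.62 and lowest values of 3.44 and 1.20. Rab2a averaged 3.42 ± 2.75 and 3.56 ± 3.01, but was higher in the shared range, at 1.19.

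The Rab effectors and regulators were low and not called, with a median of -0.14 over 6 measured. All measured genes had a median of -0.50, with 29.9% lower and 2.45% higher. Rab3gap2 and Rab3gap1, the subunits of a Rab3 and Rab18 regulator, differed by -0.46 and -0.08, and Rab11fip2 and Rab3ip by -0.31 and -0.20. Of the opposite-strand transcripts, Rab26os was lower, at -1.72. It was held by 19 cells of GMP (41.3%, 27 to 56.8) against 5 of CD11b+ GMP-P (11.1%, 3.7 to 24.1), while Rab26 itself was at 0 in every cell. The libraries do not mark strand, so reads of overlapping genes cannot be separated. Rab10os differed by -0.19.

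Within CD11b+ GMP-P, members were also compared between cells low and high in Elane, the neutrophil elastase gene, which is no member. With a limit at 9, 14 cells were Elane-low and 31 Elane-high, and 3 CD11b+ GMP-P cells lay within 1.5 of the limit. The Elane-low cells had 3096 ± 510 genes above 0 and the others 4571 ± 721, so genes found moved with the class. Neutrophil genes moved with it too. Ltf averaged 11.94 ± 3.31 in the Elane-low cells and 3.37 ± 4.35 in the others, Camp 15.65 ± 0.38 and 9.31 ± 5.38, and Ngp 16.20 ± 0.59 and 8.38 ± 5.30, while Mpo averaged 3.80 ± 2.02 and 11.82 ± 2.43. Nkg7, from the lymphoid list, averaged 2.05 ± 3.01 and 10.38 ± 2.32. The part of the genes found or of these marker genes in the members' differences was not tested. Of the 73 measured members 25 were lower in the Elane-low cells (34.2%, against 35.2% of all measured genes) and 0 higher (against 1.95%). Rab1 averaged 2.30 ± 3.41 in the Elane-low cells and 5.75 ± 2.64 in the Elane-high ones, Rab31 2.10 ± 3.09 and 5.35 ± 3.67, Rab32 2.25 ± 2.89 and 4.98 ± 3.20, and Rab44 2.57 ± 2.98 and 5.0 ± 2.81. Vamp8 averaged 6.97 ± 3.47 and 8.86 ± 1.33, and Stx16 was at 0 in all 14 Elane-low cells but above 0 in 10 of the 31 others. Other members had a mean in the Elane-low cells that was higher by less than 1. All measured genes had a median difference of -0.61 for Elane-low less Elane-high cells. Rab27a averaged 3.71 ± 3.25 and 3.62 ± 2.83, Unc13d 0.82 ± 1.68 and 0.71 ± 1.51, Rab3d 2.93 ± 3.19 and 2.48 ± 2.50, and Rab6a 4.57 ± 3.11 and 4.15 ± 2.46. Rab8a averaged 5.06 ± 3.87 and 4.40 ± 3.40, and Vamp5 3.51 ± 3.21 and 2.78 ± 2.97. Stx11 averaged 1.49 ± 2.57 and 1.17 ± 2.36, with 8 of 14 and 9 of 31 cells above 0. This gap in shares of cells did not hold with a higher floor. Among Elane-low cells, 4 (28.6%) reached 1 TPM for Stx11 and 2 (14.3%) reached 10 TPM. The Elane-high cells numbered 7 (22.6%) and 6 (19.4%) by the same floors, so the order turned by 10 TPM. The naming rule ranks no difference between the Elane classes, so the members shown for these classes were not fixed beforehand. Members outside that rule, such as Stx16, were picked after their values were seen.

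Among Elane-high cells of both populations, 43 GMP and 31 CD11b+ GMP-P cells, 8 members were lower (11%, against 22.3% of all measured genes) and 0 higher (against 2.56%). Rab14 (-1.54), Rab8b (-1.42), Rab5c (-1.25), Snap23 (-1.08) and Stxbp2 (-1.02) were among the lower ones. Rab1 differed by -0.28 and Rab31 by -0.89 there, and neither was called.

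**Figure D4:**
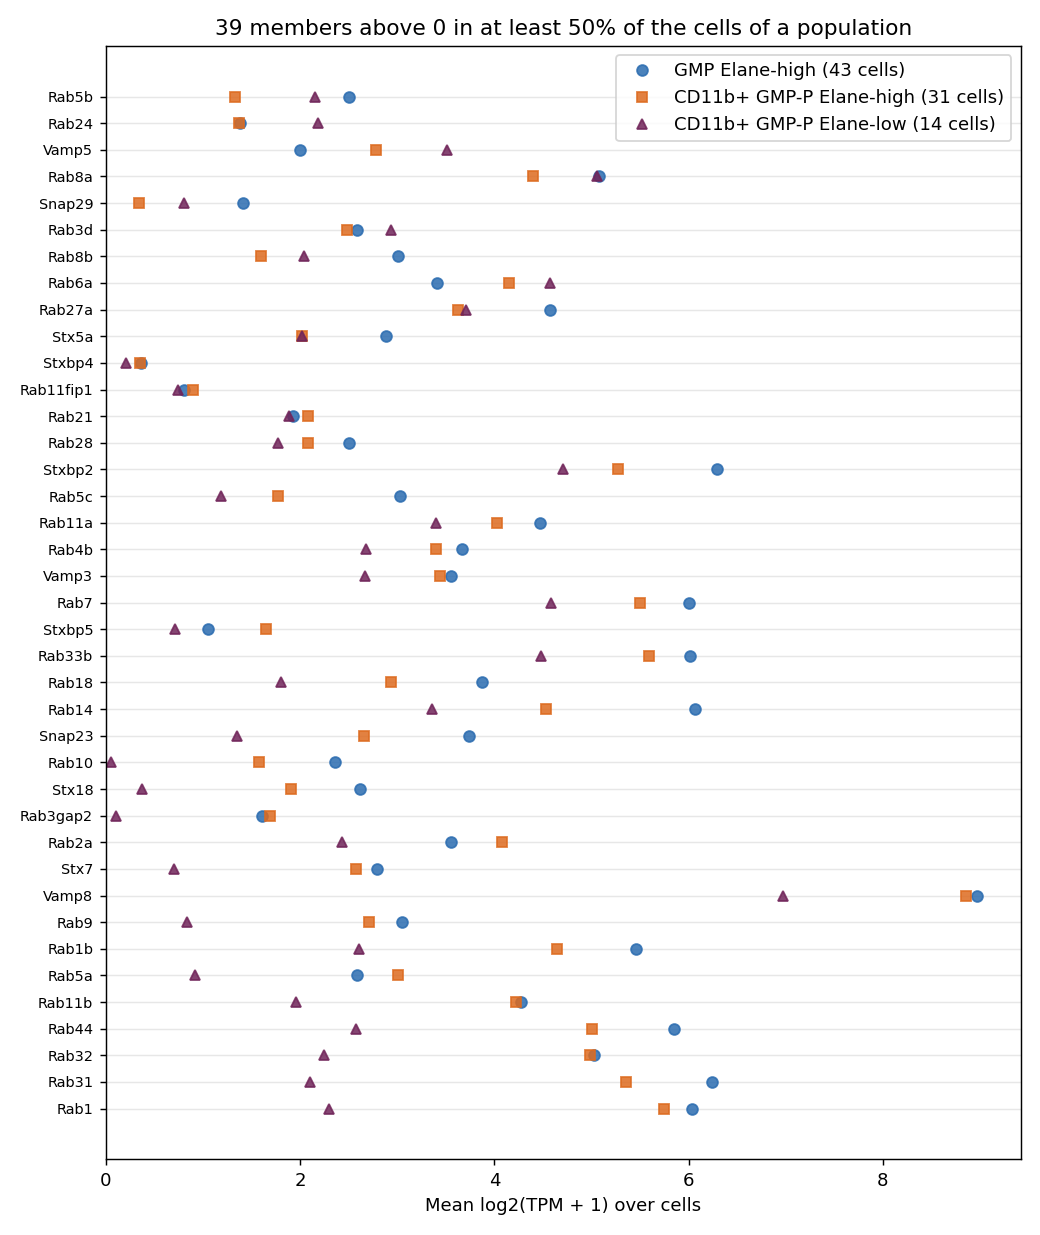
Mean level, as log2(TPM + 1) on the x axis, of the 39 members found in 50% or more of the cells of GMP or of CD11b+ GMP-P, in 43 Elane-high GMP, 31 Elane-high CD11b+ GMP-P and 14 Elane-low CD11b+ GMP-P cells. Genes are ordered by the difference between the last 2 classes, with Rab1 at the bottom and Rab5b at the top.

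Genes of the same pathways outside the name rule were read from 3 lists, to be set against 29.9% lower, 2.45% higher and a median of -0.50 over all measured genes. Of 21 measured SNARE and Stxbp-like genes, 10 were lower and 0 higher (median -0.98), among them Bet1 (-3.24), Napa (-2.22), Bnip1 (-2.13) and Gosr2 (-2.11). In the shared range Bet1 was still lower (-3.05), but Napa (-0.71), Bnip1 (-0.38) and Gosr2 (-0.20) fell short of a call. Bet1, Gosr2 and Bnip1 serve traffic between endoplasmic reticulum and Golgi, and Napa recycles SNARE complexes after fusion. Bet1 had means of 5.29 ± 2.41 for GMP and 2.05 ± 2.85 for CD11b+ GMP-P. Of 32 measured genes of Rab delivery, prenylation and activation, 6 were lower and 0 higher (median -0.32). They included Rabggtb (-2.39), a subunit of the enzyme that attaches the lipid tail of Rabs, Rabac1 (-2.31), Tbc1d15 (-1.47) and Gdi2 (-1.42). Within the shared range Rabggtb was at -1.96 and Tbc1d15 at -0.92, while Rabac1 (0.06) and Gdi2 (0.55) changed sign. Of 35 measured tethers and effectors, 8 were lower and 1 higher (median -0.41), with Ap3s1 (-2.15), Vps11 (-1.92), Exoc1 (-1.52) and Exoc7 (-1.50) lower. Exoc7 fell short of a call in the shared range (-0.69), where Ap3s1 (-1.15), Vps11 (-1.63) and Exoc1 (-1.69) did not. Ap3s1 belongs to the AP-3 coat, which sorts cargo to lysosome-related organelles, and Vps11 to lysosomal tethers. The higher gene was Lyst, named after its values were seen, a regulator of granule size whose loss gives giant granules. Lyst averaged 1.75 ± 2.31 and 3.04 ± 2.15, a difference of 1.29, and was held by 30 cells of GMP (65.2%, 49.8 to 78.6) against 42 of CD11b+ GMP-P (93.3%, 81.7 to 98.6). Its difference was positive in 9 of 9 alternatives, from 0.44 to 2.36, but reached a call in only 5 of them. In the shared range it was 0.77, short of a call.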

How the data were processed

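Single cells were captured on a Fluidigm C1 chip, copied with the SMARTer kit and made into Nextera XT libraries read as 150 bp pairs, per the labels' protocols. The authors deposited 1 table of log2 values. Returned to linear scale less a pseudocount of 1, each cell summed to between 999999 and 1000076, so the deposited values are log2(TPM + 1). RSEM and the build mm9 are listed in the submitters' processing notes. The aligner is not given in the sources used here. No 2 cells were alike beyond a correlation of 0.736, and none was left out. No doublet caller was run. The libraries carry no molecular identifiers.

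Cells were assigned to populations from their titles. Means, SDs and shares of cells were computed with pandas 2.3.3 and scipy 1.17.1, and the calculation was tested on simulated data. The simulation drew both populations from GMP cells and changed only widely found genes. It did not cover sparse members or a difference in the number of genes found. Members, role groups, lists and limits were chosen with earlier results of these data known. The genes named are the docking and fusion members, in each role group the 4 largest differences and the highest mean, the 10 largest differences in each direction, and 4 genes of each outside list. Lyst, Rab8a, Rab5a, Rab2a and Stx16 were added after their values were seen. As alternatives the pseudocount was set to 0.1 and to 10, and further ones were the log2 ratio of mean TPM, 2 scalings (median of ratios over 948 genes above 0 in at least 90% of cells, and without the 50 highest genes), other filters, floors of 1 and 10 TPM, and 4 choices of cells. The shared range of genes found kept 26 GMP and 21 CD11b+ GMP-P cells with 3947 to 5645 genes.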

Additional observations from a re-analysis of the deposited data

How the results depend on the processing

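No paired analysis was possible because the result comes from no test and the cell numbers of the populations do not overlap. The count of lower members, 13, became 25 with a pseudocount of 0.1 (against 45.6% of genes), 1 with 10 (12.6%), 3 with median of ratios scaling (18.7%), 7 in the shared range of genes found (16.7%), 8 among Elane-high cells (22.3%) and 6 without the Elane-low CD11b+ GMP-P cells (19.4%), an alternative chosen after the data were seen. The count of higher members, 0, became 4 with a pseudocount of 0.1 (against 4.17% of genes), 4 with the log2 ratio of mean TPM (10.3%), 3 with median of ratios scaling (4.47%), 3 without the 50 highest genes (3.98%), 4 in the shared range (5.88%), 2 without the 5% of cells with the most genes (2.55%) and 1 without the Elane-low cells (3.0%). The cause was not tested. The mean difference over measured members, -0.43, ran from -0.69 with a pseudocount of 0.1 to -0.09 with median of ratios scaling and -0.07 in the shared range, where the mean over all measured genes was -1.05, -0.35 and -0.26. Of the 13 lower members, 0 were called in all 9 alternatives and 11 kept their sign in all 9. Among the called genes named, the sign turned for Snap23 (0.20) and Tbc1d15 (0.28) under the log2 ratio of mean TPM. In the shared range it turned for Rab31 (0.53), Rabac1 (0.06) and Gdi2 (0.55), and without the Elane-low cells for Gdi2 (0.05). Of 43 named members that were not called, the sign turned in at least 1 of 9 alternatives for 22, among them Rab8a (0.99), Rab3ip (0.80), Rab5a (0.52) and Rab7 (0.26) under the log2 ratio of mean TPM, and Vamp3 (0.73), Rab11b (0.45) and Stx5a (0.27) in the shared range. Depth is unknown, so a member at 0 was not detected, and whether it was absent or missed cannot be told.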
